A study of Mus musculus with 2 samples.

Results

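Agouti, written a in the deposited tables, and the genes beside it on mouse chromosome 2 were compared between EpCAM-positive breast tumour cells of PyMT;Zeb1cKO mice and those of PyMT mice. The 7 genes described were chosen by symbol from the 16902 genes listed in at least 1 library. They are agouti, its chromosome 2 neighbours Chmp4b, Raly, Eif2s2, Ahcy and Itch, and Gm4737, a copy of Ahcy on chromosome 16. They were picked with the values of agouti in these libraries known, so the sizes of the differences between the libraries are descriptions and carry no test. All tumours carried PyMT, the middle T oncogene of polyomavirus, and those of the first group also carried a conditional knockout of Zeb1, a transcription factor that represses epithelial genes. Each group has 1 library, and the effect of genotype cannot be told apart from that of the animal, tumour, strain background or preparation behind each. The driver of the transgene, the Cre line, the deleted part of Zeb1, the strain and the number of pooled animals are not stated in the labels used.

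Agouti is a secreted protein that blocks the melanocortin 1 receptor on pigment cells, where it shifts pigment from black to yellow, and in skin it is made mainly by the dermal papilla of the hair follicle. The gene is known for alleles in which other control sequences drive it. In lethal yellow mice a deletion that removes Eif2s2 and the coding part of Raly puts agouti under the Raly promoter, and in the a18H allele an inversion breaks both agouti and Itch. The flanking genes have housekeeping roles in splicing, translation, methyl group metabolism, ubiquitin transfer and membrane fission.

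In the order of chromosome 2 (RefSeq coordinates, GRCm38, the assembly behind mm10) Chmp4b lay at 154657026 to 154694783, Raly at 154790920 to 154871010 and Eif2s2 at 154871410 to 154892906. Agouti (Entrez gene 50518) followed on the plus strand at 154950599 to 155051012. Ahcy, on the minus strand, followed at 155059310 to 155074497, and Itch at 155133481 to 155226855. Agouti and Ahcy therefore end toward each other, with 8297 bases between them, and they do not overlap. The gap to agouti was 57.7 kb for Eif2s2, 79.6 kb for Raly, 82.5 kb for Itch and 256 kb for Chmp4b. GENCODE also annotates an agouti transcript, a-204, that starts at 154791402, inside Raly, and ends at 155047727. The deposited agouti row rests on a single RefSeq transcript, with a length of 692 bases, and does not say which start the reads came from.

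The RefSeq promoter windows (GRCm38.p6) of the neighbouring pair with the highest ratios of the chromosome 2 genes described are shown first, agouti at chr2:155013320-155013619 on the plus strand and Ahcy at chr2:155074448-155074747 on the minus strand. Capitals mark the transcript from the RefSeq start used for the window.
agouti promoter: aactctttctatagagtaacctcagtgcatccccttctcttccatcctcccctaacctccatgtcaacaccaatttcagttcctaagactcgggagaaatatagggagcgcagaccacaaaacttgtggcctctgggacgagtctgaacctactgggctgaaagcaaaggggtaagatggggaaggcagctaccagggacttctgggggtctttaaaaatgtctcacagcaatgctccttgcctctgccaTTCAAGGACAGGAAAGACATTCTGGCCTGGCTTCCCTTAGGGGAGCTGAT
Ahcy promoter: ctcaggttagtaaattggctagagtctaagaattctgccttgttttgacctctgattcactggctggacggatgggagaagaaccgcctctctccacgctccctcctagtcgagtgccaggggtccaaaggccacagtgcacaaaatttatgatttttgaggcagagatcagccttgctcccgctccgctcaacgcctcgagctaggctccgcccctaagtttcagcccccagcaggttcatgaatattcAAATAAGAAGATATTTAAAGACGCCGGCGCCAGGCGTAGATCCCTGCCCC
Neither window held CAGGTG or CAGGTA, E-box sequences of the kind Zeb1 is known to bind, on either strand. The agouti window does not cover all annotated starts of the gene. GENCODE places the starts of a-206 and a-201 at 155013472 and 155013531, within the lower-case bases of the window. The GENCODE transcripts a-203 and a-202 start at 154951180 and 154951219, outside it, as does a-204, and no agouti window at these starts was scanned. Of 32851 promoter windows of the same length, 20.2% held CAGGTG and 12.0% held CAGGTA. Among the other genes described, the windows of Raly, Eif2s2 and Chmp4b held neither, the window of Gm4737 held CAGGTA, and Itch has no entry in the table used.

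Zeb1 itself had 38 estimated counts in the PyMT;Zeb1cKO library and 96 in the PyMT library, with a count ratio of 0.401 (0.268 to 0.59, 95% counting interval). The count does not separate reads of the deleted part. The libraries held 21277484 (PyMT;Zeb1cKO) and 21580274 (PyMT) estimated counts, and Epcam, the sorting marker, stood at 479.7 and 740.8 FPKM in that order. Count ratios divide each library's share of its total, PyMT;Zeb1cKO over PyMT, and their exact 95% intervals (Clopper-Pearson) cover counting error only. FPKM are fragments per kilobase, scaled by the authors to the depth of the library. They are higher than the listed gene lengths would give, more so for short genes such as agouti. This bears on the order of levels between genes. Log2 ratios are on the log2(FPKM + 1) scale, which understates the difference of low genes. Across all 12653 genes with at least 1 FPKM in a library, 10.2% had a log2 ratio of 1 or more and 8.78% one of -1 or less, that is, higher or lower by 2-fold in the PyMT;Zeb1cKO library. The median log2 ratio of all these genes was 0.13, and scaling by the median of ratios or by TMM brought it to 0.0014 and -0.00069. Of the genes past 2-fold, 53.7% were higher with the authors' scaling, 42.2% with the median of ratios and 41.9% with TMM.

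Agouti had the highest log2 ratio of the 12653 genes. It had 1936 estimated counts in the PyMT;Zeb1cKO library, against 10 in the PyMT library. Its level was 175.56 FPKM in the PyMT;Zeb1cKO library (95% counting interval 168 to 184) and 0.92 FPKM in the PyMT library (0.441 to 1.69). By level it ranked 536 of 16206 listed genes in the PyMT;Zeb1cKO library and 12034 of 16162 in the PyMT library. The count ratio was 196 (107 to 410) and the log2 ratio 6.52, with Dcpp2, the gene next in order, at 5.14. The width of the interval comes from the 10 counts of the PyMT library. Counts of agouti were whole numbers in both libraries, as where no read is divided between genes.

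**Figure D1:**
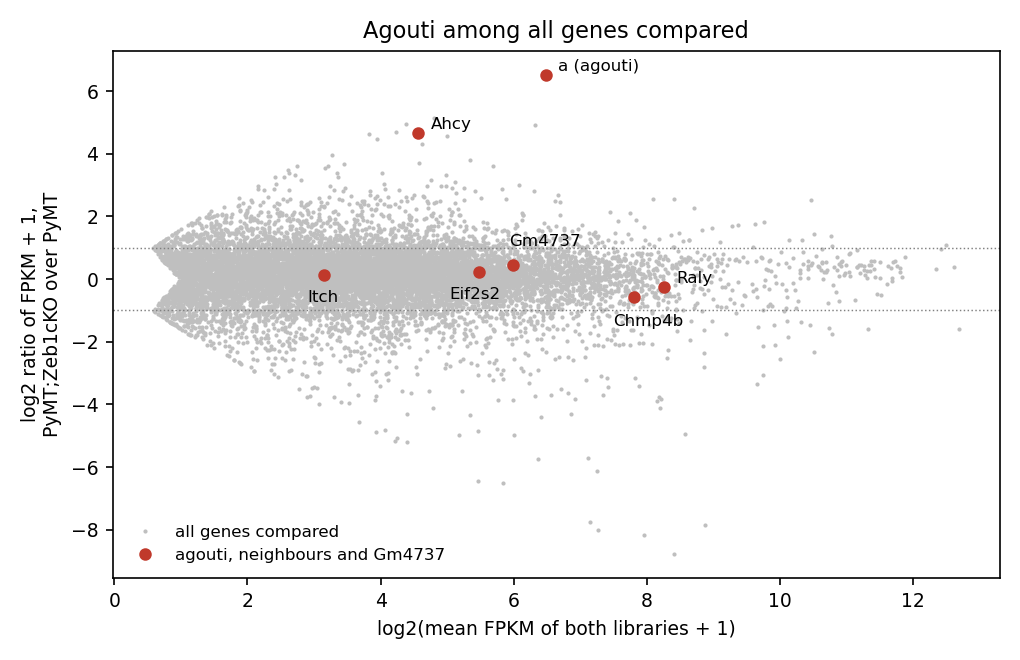
Each point is 1 of the 12653 genes compared, with the log2 of the mean FPKM of both libraries plus 1 on the x axis and the log2 ratio of FPKM + 1, PyMT;Zeb1cKO over PyMT, on the y axis; dotted lines mark 2-fold. Agouti lies above all others at 6.52, Ahcy lies at 4.67, and Raly, Eif2s2, Itch, Chmp4b and Gm4737 lie between the lines.

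The neighbours of agouti did not share its difference, apart from the row of Ahcy. Of the 5 neighbours described, Ahcy alone (1 gene) exceeded 2-fold by its log2 ratio, and 4 lay within it, beside 10.2% of all genes higher and 8.78% lower; these genes were chosen with the contrast known, so their count is not read against that share. The count ratios of these 4 lay between 0.677 and 1.18.

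Eif2s2 encodes the beta subunit of eIF2, the factor that brings the initiator tRNA to the ribosome. It had 2337 counts in the PyMT;Zeb1cKO library and 2001 in the PyMT library, with 46.95 and 39.90 FPKM in that order. The count ratio was 1.18 (1.12 to 1.26), and 1.07 after scaling by the median of ratios. Its log2 ratio of 0.23 was close to the 0.13 of all genes.

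Raly encodes an RNA-binding protein of the hnRNP C type and was the most abundant of the 7 genes in both libraries. It was at 278.71 FPKM in the PyMT;Zeb1cKO library and 329.54 in the PyMT library, from 9121 and 11106 counts. The count ratio was 0.833 (0.81 to 0.856). Raly was therefore lower in the library where agouti was abundant, and a link between the levels of these genes was not tested.

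Itch, a HECT-type ubiquitin ligase that restrains T cell responses, was the least abundant of the 5 neighbours in the PyMT;Zeb1cKO library. It had 889 counts in the PyMT;Zeb1cKO library and 810 in the PyMT library, at 8.33 and 7.51 FPKM. Its count ratio of 1.11 (1.01 to 1.23) became 1.00 with either the median of ratios or TMM.

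Chmp4b, a subunit of the ESCRT-III filament that cuts membrane necks, had the lowest ratio of the 7 genes. It was at 178.61 FPKM in the PyMT;Zeb1cKO library and 266.75 in the PyMT library, from 5447 and 8161 counts. Its count ratio was 0.677 (0.654 to 0.701), on the opposite side of 1 from agouti, and it stayed below 1 under each scaling tried.

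**Figure D2:**
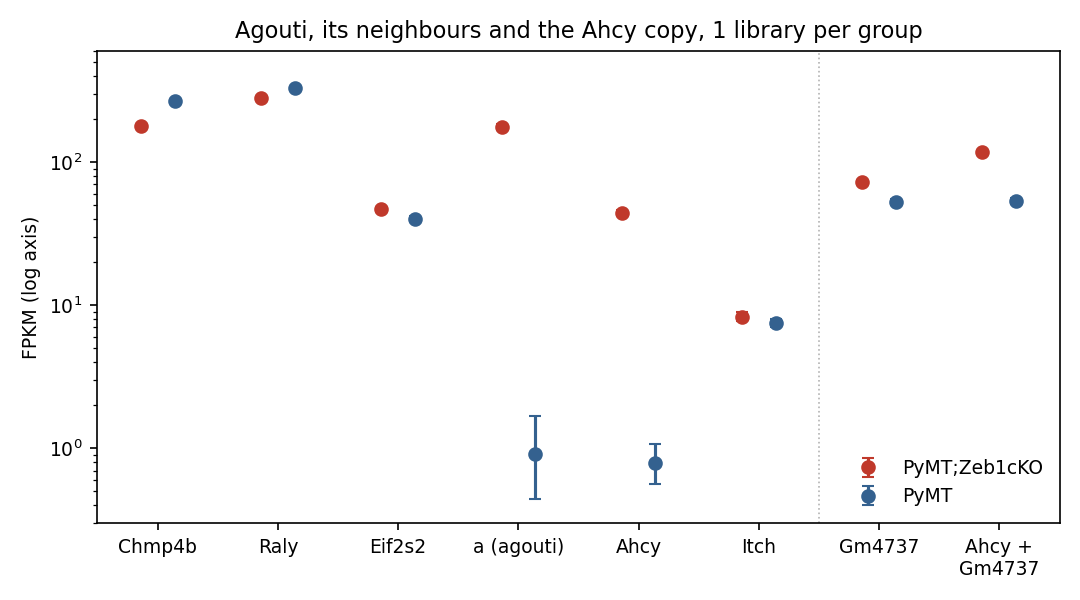
FPKM (log axis) of agouti, its neighbours in chromosome order and, right of the dotted line, the Ahcy copy Gm4737 and the sum of both; points are single libraries, PyMT;Zeb1cKO left of PyMT, and bars are exact 95% counting intervals. Agouti was at 175.56 and 0.92 FPKM and Ahcy at 44.44 and 0.79, while Chmp4b, Raly, Eif2s2 and Itch differed by less than 2-fold.

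The order of the levels differed between the libraries. In the PyMT;Zeb1cKO library Raly was followed by Chmp4b and agouti, whose counting intervals overlapped (174 to 183 and 168 to 184 FPKM), then Gm4737, then Eif2s2 and Ahcy, whose intervals also overlapped (45.1 to 48.9 and 42.6 to 46.3), and Itch came last. In the PyMT library Raly, Chmp4b, Gm4737, Eif2s2 and Itch kept that order, and agouti and Ahcy came last with overlapping intervals (0.441 to 1.69 and 0.564 to 1.08 FPKM). With 1 library per group, no spread between animals stands behind these orders.

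Ahcy, the gene nearest to agouti, encodes the enzyme that hydrolyses S-adenosylhomocysteine, the product of methyl transfer. Its row had 2256.41 estimated counts in the PyMT;Zeb1cKO library and 40.42 in the PyMT library, a count ratio of 57.2 (41.9 to 80.3) and a log2 ratio of 4.67. That was the sixth highest log2 ratio of all genes. These counts are not whole numbers, because reads of Ahcy also match Gm4737 (Entrez gene 11615, chromosome 16, 46152985 to 46155077), an intronless copy. The copy had 2959.74 counts in the PyMT;Zeb1cKO library and 2166.58 in the PyMT library, at 72.48 and 52.74 FPKM, a count ratio of 1.39 (1.31 to 1.46).

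The likeness of the copies can be seen in their transcripts. The full-length GENCODE transcripts of Ahcy, with 10 exons, and of Gm4737, with 1 exon, were 99.66% identical over 2081 aligned bases, with 7 mismatches and an identical run of 575 bases. The coding parts of 1299 bases differed at 4 positions. The Ahcy transcript reached 422 bases further at its 3′ end, on the side facing agouti. A stretch around the last pair of coding mismatches, coding bases 1029 to 1088, lies at chr2:155062228-155062287 in Ahcy and at chr16:46153925-46153984 in Gm4737, both on the minus strand of GRCm38. Capitals mark the bases that differ, and reads that span neither these nor the other differences fit both genes.
Ahcy: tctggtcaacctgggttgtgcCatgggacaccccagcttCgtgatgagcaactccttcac
Gm4737: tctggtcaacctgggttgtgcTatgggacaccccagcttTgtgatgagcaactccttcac

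The share of the summed counts that went to Ahcy was 43.3% in the PyMT;Zeb1cKO library (exact binomial 95% interval 41.9 to 44.6) and 1.83% in the PyMT library (1.3 to 2.46). Gm4737 took the other 56.7% and 98.2%. The summed counts of both rows, which do not depend on how reads were divided between them, were 5216.15 in the PyMT;Zeb1cKO library and 2207 in the PyMT library. The count ratio of the sum was 2.4 (2.28 to 2.52), and the summed FPKM were 116.92 and 53.53, a log2 ratio of 1.11. Summed FPKM and TPM do depend on that division, because the rows differ in length (2560 bases for Ahcy and 2093 for Gm4737). The Ahcy row alone thus had a count ratio of 57.2 and the pair together one of 2.4. The ratio of the pair was 2.16 with either other scaling and 2.1 as a ratio of TPM (FPKM rescaled to the same total in both libraries). These ratios lay above 2 but below the counting interval of 2.28 to 2.52. They do not place the pair by the 2-fold rule, which uses log2(FPKM + 1). On that scale the pair was near the line, at 1.11 with the authors' scaling. The other scalings multiply the PyMT;Zeb1cKO values by 0.902 (median of ratios) and 0.901 (TMM). The log2 ratio of the pair was not calculated with them, so the pair is not shown to stay past 2-fold. Whether the reads came from Ahcy or from its copy was not tested. An unnamed gene model annotated as the same enzyme held 2.85 counts in the PyMT;Zeb1cKO library and was not listed in the PyMT library. Ahcyl1, a related gene with whole counts, was at 45.23 and 60.43 FPKM in the PyMT;Zeb1cKO and PyMT libraries.

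**Figure D3:**
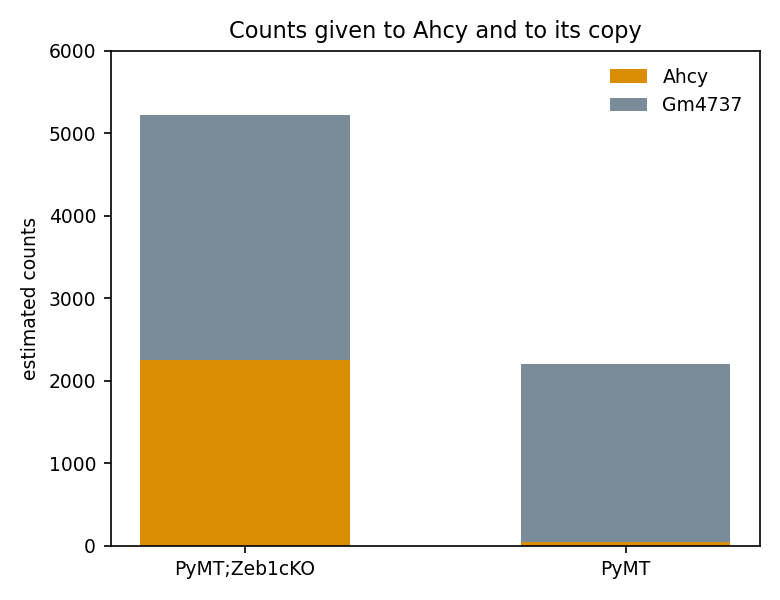
Estimated counts (y axis, from 0) of Ahcy and of Gm4737, stacked, in the PyMT;Zeb1cKO library and the PyMT library. The total was 5216.15 against 2207 counts, and the part given to Ahcy was 43.3% against 1.83%.

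The wider neighbourhood was close to the genome as a whole. Within 1000 kb of agouti on either side RefSeq annotates 74 other genes, of which 46 are coding. Of the 74, the tables list 38, and 30 reached 1 FPKM in a library. Of these 30 genes, 3 were 2-fold higher or more in the PyMT;Zeb1cKO library and none was 2-fold lower, against 10.2% and 8.78% of all genes. Without Ahcy, which was compared only through its level in the PyMT;Zeb1cKO library, 2 of 29 were higher. With a pseudocount of 0.1 in place of 1, 2 genes passed 2-fold lower. The median log2 ratio of the 30 was 0.13, the same as for all genes. Chromosome 2 without agouti, with 970 genes that include these 30, had a median of 0.16, with 106 genes higher and 67 lower. Within 250 kb, 7 genes were compared, and their median was 0.16 with Ahcy and 0.14 without it.

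The genes within 250 kb beyond those described above were Dynlrb1, Map1lc3a and Pigu. Dynlrb1, a dynein light chain, was at 182.64 FPKM in the PyMT;Zeb1cKO library and 223.34 in the PyMT library. Map1lc3a, an LC3 protein of the autophagosome membrane, was at 136.09 and 122.09 FPKM in that order. Pigu, a subunit of the complex that attaches GPI anchors to proteins, was at 35.07 and 23.56, a count ratio of 1.5. All 3 lay within 2-fold, with log2 ratios of -0.29, 0.16 and 0.55.

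Apart from Ahcy, the compared genes past 2-fold by log2 ratio in the 1000 kb window lay on the far side of Chmp4b. E2f1, a transcription factor that drives entry into S phase, was at 10.97 FPKM in the PyMT;Zeb1cKO library and 4.28 in the PyMT library (count ratio 2.58). Bpifb5, of the BPI-fold secreted protein family, was at 19.01 and 7.87 FPKM (count ratio 2.44). The lowest log2 ratios were those of Bpifb1 (-0.93, with 11 counts in the PyMT;Zeb1cKO library and 50 in the PyMT library), 1700003F12Rik (-0.84, with 3 and 15 counts) and Eif6 (-0.69). Eif6, which keeps ribosomal subunits apart, was the abundant one of these, at 125.07 FPKM in the PyMT;Zeb1cKO library and 202.4 in the PyMT library. None of the 29 genes compared other than Ahcy had a log2 ratio above 1.18. By count ratio, Bpifb1 (0.223) and 1700003F12Rik (0.203) were past 2-fold lower. Another 8 listed genes of the window stayed below 1 FPKM in both libraries and were not compared. Of these, Fam83c, Fer1l4, Myh7b and 6430550D23Rik, beyond Itch, had count ratios of 17.2, 4.21, 3.19 and 3.04. Bpifb4 had 0 counts in the PyMT;Zeb1cKO library and 7 in the PyMT library. Necab3, Ggt7 and Actl10 had count ratios of 0.964, 0.936 and 1.01.

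**Figure D4:**
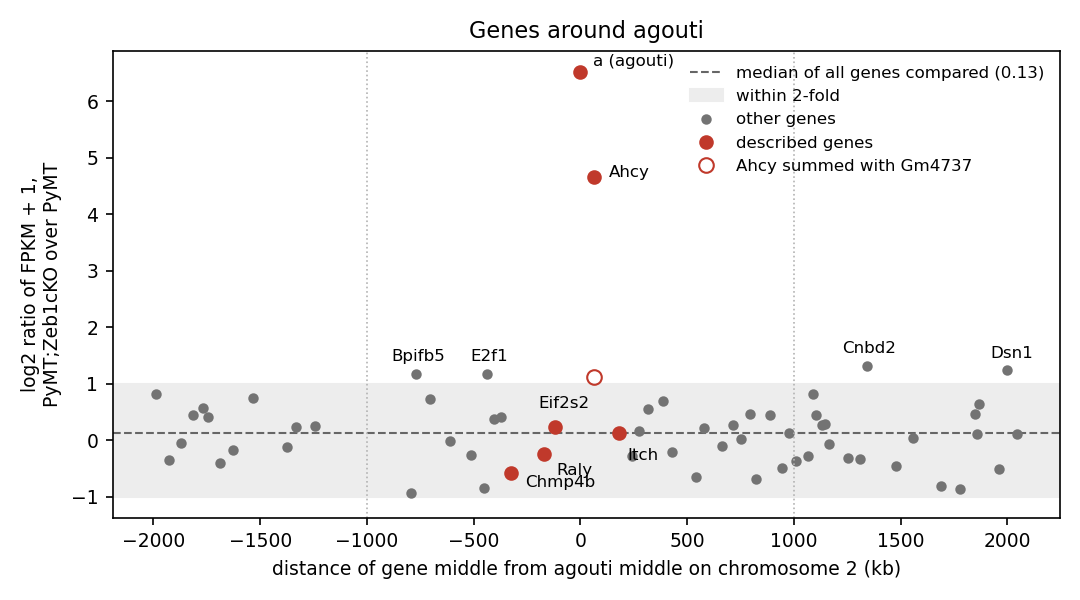
Log2 ratio of FPKM + 1, PyMT;Zeb1cKO over PyMT (y axis), of genes compared within 2000 kb of agouti, by the distance of the gene middle from that of agouti (x axis, kb); the grey band is within 2-fold, the dashed line is the median of all genes and dotted lines mark 1000 kb. Agouti (6.52) and the Ahcy row (4.67) stand above the rest, and the open circle shows Ahcy summed with Gm4737 (1.11).

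The pathways of the neighbours were compared through lists of their partners, whose counts stand against 10.2% of all genes higher and 8.78% lower. Of 15 methionine cycle genes compared, 4 were 2-fold higher and none was lower in the PyMT;Zeb1cKO library, with a median log2 ratio of 0.43 that includes both Ahcy and Gm4737. After scaling by the median of ratios, the count was 2 and the median 0.28. Beside Ahcy, the 4 were Cth, which makes cysteine from cystathionine (4.15 FPKM in the PyMT;Zeb1cKO library and 0.26 in the PyMT library), Mat2a, which makes S-adenosylmethionine (56.86 and 26.05), and methionine synthase Mtr (3.73 and 1.3); the log2 ratios of Mat2a and Mtr were 0.95 and 0.92 with that scaling. Mat2b, the regulatory partner of Mat2a, was at 46.57 and 63.71 FPKM and had the lowest log2 ratio of the list, -0.44, next to Ahcyl1 at -0.41. The 2 genes that stayed 2-fold higher with that scaling were Ahcy and Cth. At 0.79 and 0.26 FPKM in the PyMT library, they were compared only through their level in the PyMT;Zeb1cKO library. Ahcy was also chosen with its values known, and its row depends on how reads were divided with Gm4737. The count of this list is therefore not read against the share of all genes.

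None of the 15 genes of eIF2, its exchange factor and its kinases passed 2-fold by log2(FPKM + 1), and their median log2 ratio was 0.29. The count ratios of Eif2s1, Eif2b4 and Eif2s3x were at that line, at 2.04, 2.02 and 2.0, and with a pseudocount of 0.1 the number 2-fold higher was 1. The other eIF2 subunit genes, Eif2s1 and Eif2s3x, had the highest ratios of the list, each at 0.98, against 0.23 for Eif2s2. Eif2s1 was at 32.81 FPKM in the PyMT;Zeb1cKO library and 16.17 in the PyMT library. The lowest were Eif2ak3, the kinase PERK (-0.44), and the exchange factor subunit Eif2b2 (-0.24).

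Of 12 hnRNP genes compared, 7 were 2-fold higher and none was lower, with a median of 1.05. After scaling by the median of ratios, 5 were 2-fold higher and the median was 0.90. Raly, at -0.24, had the lowest log2 ratio among them and was the only one of the 12 below 0 with the authors' scaling. Hnrnpl came next at 0.06, and at -0.08 after scaling by the median of ratios. Hnrnpa2b1 (358.02 FPKM in the PyMT;Zeb1cKO library and 95.04 in the PyMT library) and the splicing factor Hnrnpm (186.75 and 61.11) had the highest ratios, 1.90 and 1.60.

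Of 9 genes of Nedd4-family ubiquitin ligases and their adaptors, none was past 2-fold, and the median was 0.02, against 0.13 for Itch. Nedd4 (0.66) and Wwp1 (0.37) were the highest, and Wwp2 (-0.92) and Smurf1 (-0.83), a ligase for Smad proteins, the lowest. After scaling by the median of ratios, the log2 ratio of Wwp2 was -1.06, which made 1 gene 2-fold lower. Of 15 ESCRT-III and Vps4 genes, 1 was 2-fold lower and none higher, with a median of -0.22, against -0.58 for Chmp4b. The one past 2-fold was Chmp4c, a paralog of Chmp4b with a role in the abscission checkpoint, at 2.50 FPKM in the PyMT;Zeb1cKO library and 6.20 in the PyMT library. Chmp2b followed at -0.75, and Chmp3 (0.16) and Chmp5 (0.14) were the highest.

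**Figure D5:**
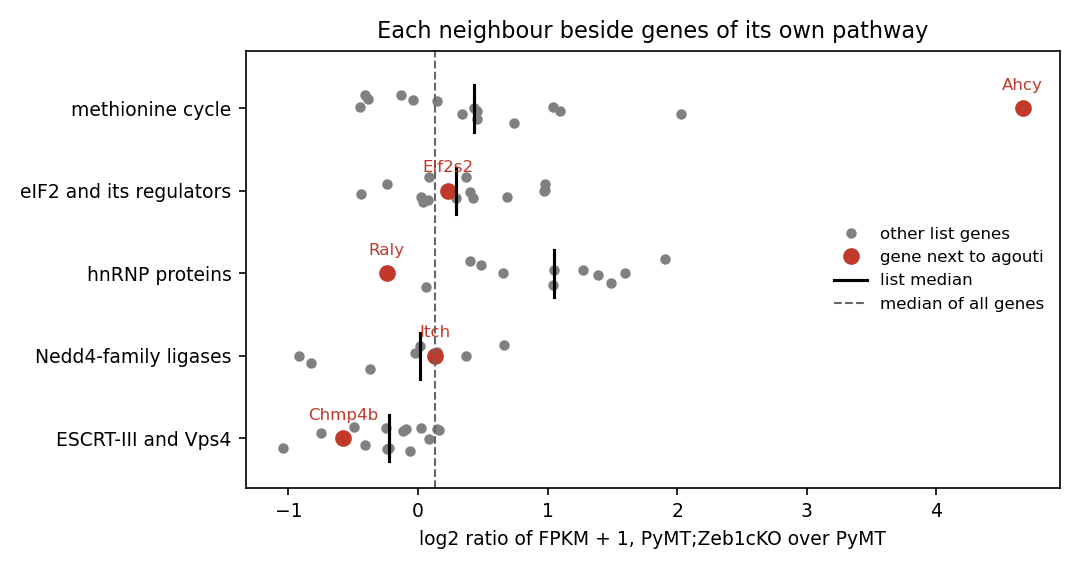
Log2 ratio of FPKM + 1, PyMT;Zeb1cKO over PyMT (x axis), of the genes compared in 5 pathway lists (rows), with the gene next to agouti in red, the list median as a bar and the median of all genes as a dashed line. Ahcy, as its own row, stands at 4.67 and Raly at -0.24, the lowest of the hnRNP genes.

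The melanocortin receptors and pigment enzymes were low or not listed in both libraries. Of 20 genes of the melanocortin and pigment list, 11 were listed, and 3 of them, agouti, Mgrn1 and Atrn, reached 1 FPKM. Atrn, which encodes the accessory receptor attractin that agouti needs for its effect on pigment, was at 3.04 FPKM in the PyMT;Zeb1cKO library and 3.22 in the PyMT library. Mgrn1, a ubiquitin ligase that acts in the same pigment switch, was at 48.42 FPKM in the PyMT;Zeb1cKO library and 90.91 in the PyMT library, with a log2 ratio of -0.90, or -1.04 after scaling by the median of ratios. The receptor gene Mc1r had 3 counts in the PyMT;Zeb1cKO library and 7 in the PyMT library. Pomc, which encodes the activating hormone, and the receptor gene Mc4r were not listed in the tables used here.

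Markers of cells that could carry agouti into the sorted fraction were measured beside it. Of 9 melanocyte markers none reached 1 FPKM, and their summed level was 1.59 FPKM in the PyMT;Zeb1cKO library and 1.35 in the PyMT library, with Pmel the highest at 0.99 and 0.64 FPKM. The pigment enzyme genes Tyrp1 and Dct were not listed. Of 8 dermal papilla markers, 1 of the 5 compared was 2-fold higher, against 10.2% of all genes, and the summed level was 146.2 FPKM in the PyMT;Zeb1cKO library and 63.6 in the PyMT library. The gene was Wif1, a Wnt inhibitor, at 99.14 and 12.55 FPKM, and without it the sums were 47.05 and 51.05 FPKM. Alpl (8.33 and 12.49), Prom1 (17.64 and 22.86) and Lef1 (0.13 and 0.57) had lower values in the PyMT;Zeb1cKO library, Crabp1 (13.47 and 9.93) and Sox18 (7.45 and 5.19) higher ones. Corin, a protease that dermal papilla cells make, had 1 count in each library. The part of these markers in the agouti difference was not tested. In RNA from a bulk of cells, a change in the number of cells of a type and a change in RNA per cell cannot be told apart.

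Fibroblast markers summed to 671.8 FPKM in the PyMT;Zeb1cKO library and 643.6 in the PyMT library, with Col1a1 the highest at 258.95 and 230.84. Of the 10, Lum (14.41 and 6.36) was 2-fold higher and Postn (33.19 and 128.49) 2-fold lower, where 10.2% of all genes were higher and 8.78% lower. Keratinocyte and hair follicle markers summed to 399.4 and 657.7 FPKM, led by Krt5 (238.99 and 397.38), adipocyte markers to 17.98 and 23.84, led by Fabp4 (14.73 and 21.10), and endothelial markers to 51.25 and 91.48, led by Plvap (20.73 and 29.31). The keratinocyte sum came mainly from Krt5 and Krt14 (148.66 and 254.24). Beyond these and Trp63, its highest value was 2.06 FPKM, for Krt71 in the PyMT library, and Flg was not listed. The sum is therefore not read as a level of keratinocytes or hair follicle cells. Leukocyte markers summed to 205.8 FPKM in the PyMT;Zeb1cKO library and 424.4 in the PyMT library, with S100a8 the highest in the PyMT library (14.99 and 225.82) and Lyz2 in the PyMT;Zeb1cKO library (136.92 and 77.38). They did not share a direction. Lyz2, Csf1r (14.93 and 13.40) and Adgre1 (4.80 and 3.14) were higher in the PyMT;Zeb1cKO library. S100a8, S100a9 (1.03 and 39.10), Ngp (0 and 4.98) and Cd68 (31.67 and 59.17) were lower, and Ptprc was at 1.11 and 1.09. Epithelial markers were abundant in both, at 2520 and 5093 FPKM in sum, with Krt8 (830.3 and 1584.09) and Krt18 (712.37 and 1836.43) the highest. The epithelial label thus had its defining markers in both libraries, and stromal and blood cell markers were present too. Of 5 genes compared in the keratinocyte list, 1, Trp63, was 2-fold higher (8.70 and 3.03). Of 7 endothelial markers 1, Cldn5, was lower (3.17 and 15.06). Of 8 leukocyte markers 3 were 2-fold lower, namely S100a8, S100a9 and Ngp, and of 8 epithelial markers 3, namely Krt18, Krt19 and Krt7. No adipocyte marker of the 3 compared was past 2-fold. After scaling by the median of ratios, 0 fibroblast markers were higher, and 3 endothelial, 4 leukocyte and 4 epithelial markers were lower.

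The genes most like agouti in their log2 ratio, among those with at least 5 FPKM in a library and whole counts in both, were Acsm1, Atp2a3, Hoxb2, Nmral1 and Hoxb5, at 1.56 to 2.55 log2 units below it. Acsm1, a medium-chain acyl-CoA synthetase, was at 39.47 FPKM in the PyMT;Zeb1cKO library and 0.30 in the PyMT library. Atp2a3, a calcium pump of the endoplasmic reticulum, was at 154.37 and 4.17, and Nmral1, which encodes an NADPH-binding protein, at 60.62 and 1.58. The homeobox genes Hoxb2 (35.15 and 0.39) and Hoxb5 (17.22 and 0.16) stand in the same cluster. The likeness rests on 2 libraries.

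The surroundings of these genes differed from each other. Where 10.2% of all genes were 2-fold higher, all 6 genes compared within 250 kb of Hoxb2 were (median log2 ratio 3.24), and 6 of 8 around Hoxb5, with a median of 3.07. Both windows overlap and each holds the other gene, so these counts describe the same region. Hoxb2 and Hoxb5, at 0.39 and 0.16 FPKM in the PyMT library, were compared only through their level in the PyMT;Zeb1cKO library. The same holds for agouti, Ahcy and Acsm1, at 0.92, 0.79 and 0.30 FPKM in the PyMT library. Genes compared in this way can only be higher. How many of the surrounding genes they include was not counted, so the counts around each gene are not read against the share of all genes. Around Acsm1, 2 of 5 were higher, around Atp2a3 1 of 10, and around Nmral1 1 of 15, with medians of 0.70, 0.14 and -0.04. Around agouti the count was 1 of 7, namely Ahcy, with the median of 0.16 given above. These counts are descriptions of single libraries, and the difference between the regions was not tested.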

How the data were processed

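Messenger RNA of EpCAM-positive tumour cells was sequenced in 1 PyMT;Zeb1cKO library and 1 PyMT library. Per the file headers, the authors' deposited tables give per gene an estimated count (expected count, not scaled to depth) and an FPKM value scaled to gene length and depth. The tools RSEM 1.2.8, Bowtie2 2.2.5, HISAT2 2.1.0 and DESeq and the build mm10 come from the submitters' processing notes, which give none of them a role. Whether counting used strand is not stated.

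Counts were rounded for ratios and intervals. A gene missing from a table was set to 0. Genes with at least 1 FPKM in a library were compared, with a pseudocount of 1. A count was called whole within 1e-09. Entrez numbers were matched to RefSeq (16278 of 16902), and windows were counted by overlap. With 1 library per group there is no test, and 2-fold is a rule of size. TMM factors came from edgeR 4.0.16 in R 4.3.3; Python 3.11.15, pandas 2.3.3, scipy 1.17.1 and biopython 1.88 did the rest, with transcripts from GENCODE. Ratios and intervals were tested only on simulated counts with counting error alone (Poisson), without spread between animals or reads shared between genes. Named genes followed a rule (the 7 genes, all genes within 250 kb, the 3 highest and 3 lowest within 1000 kb, up to 2 highest and 2 lowest per pathway list, the 5 genes nearest agouti, the top marker of each list). Dcpp2, Mtr, Mat2a, Eif2b4, Corin, Wif1, Alpl, Prom1, Lef1, Crabp1, Sox18, Lum, Postn, Trp63, Krt14, Krt71, Flg, Cldn5, Csf1r, Adgre1, Cd68, Ptprc, S100a9, Ngp, Krt19, Krt7, Mc1r, Tyrp1, Dct, Pomc and Mc4r were named after their values were seen. So were Fam83c, Fer1l4, Myh7b, 6430550D23Rik, Bpifb4, Necab3, Ggt7 and Actl10. The symbol Atrn was misspelt in the list as first written and was corrected after the values were seen. The genes described and the lists were chosen with earlier results of these data known.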

Additional observations from a re-analysis of the deposited data

How the results depend on the processing

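The agouti ratio of 196 stayed within its counting interval under every scaling tried, at 177 with the median of ratios and with TMM, 191 as an FPKM ratio and 183 as a TPM ratio. The summed Ahcy and Gm4737 ratio of 2.4 was 2.16 with the median of ratios and with TMM, 2.18 as an FPKM ratio, 2.1 as a TPM ratio and 57.2 for the Ahcy row alone. All of these lay outside its counting interval of 2.28 to 2.52. The median of the 30 neighbours, 0.13, was 0.0029 with the median of ratios and 0.00058 with TMM, a shift shared by all genes. The 3 neighbours 2-fold higher became 1 within 250 kb and 5 within 2000 kb, by the number of genes in the window. The count of 2-fold lower neighbours, 0, became 2 with a pseudocount of 0.1. Replacing the Ahcy row by the sum, chosen after seeing the data, left the neighbour counts at 3 and 0 with the authors' scaling. Other scalings were not tried with the sum in place of the row. For the pathway lists, other settings were likewise chosen after seeing the data. With the median of ratios and with TMM, the 4 methionine cycle genes higher became 2, and 1 melanocortin and 1 Nedd4-family gene were lower in place of 0. With a pseudocount of 0.1, 1 eIF2 gene was higher in place of 0. Of 24 ratios of the other genes under other scalings, none crossed 1, and 11 left their counting interval. No paired analysis was possible because each group has 1 library. No replicate could be left out. Depth limits agouti in the PyMT library, with 10 counts.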
